A study of Homo sapiens with 42 samples.

Results

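The count table held 5 ribosomal DNA (rDNA) regions, rDNA_13_1, rDNA_14_1, rDNA_15_1, rDNA_21_1 and rDNA_22_1, among 2523 named regions of the T2T-CHM13 human genome. They were chosen by name alone, as every row whose name starts with rDNA_, and each stands for the rDNA array of the acrocentric chromosome in its name (13, 14, 15, 21 or 22). An rDNA array is a long run of near-identical repeats, each with a gene for the precursor of the large ribosomal RNAs and a spacer. RNA polymerase I transcribes these genes at a very high rate in the nucleolus, which forms around the arrays on the short arms of the acrocentric chromosomes. Topoisomerase 2 (TOP2) cuts both DNA strands to relieve supercoils and to separate sister chromatids. Of its forms, TOP2A is made mainly by dividing cells, whereas resting cells also make TOP2B.

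DNA came from KG1, an established line of human acute myelogenous leukaemia cells. In the etoposide series, 4 replicas were exposed for 1 h to 100 µM etoposide or to vehicle. In the mitoxantrone series, 3 replicas were exposed for 1 h to 20 µM mitoxantrone or to vehicle. Both drugs are TOP2 poisons, which hold the enzyme covalently on the DNA it has cut. Every replica gave 6 libraries, namely a TOP2A pulldown, a TOP2B pulldown and an input, each with and without drug. That made 42 libraries in 12 groups, of 4 libraries in the etoposide series and 3 in the mitoxantrone series. The pulldowns were made without formaldehyde, with 4 µg of antibody for TOP2A and 5 µg for TOP2B, so the pulldowns differed in antibody as well as in target. The labels name a single cell line and do not say whether replicas were grown and treated separately, so the spread between them may be technical.

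The 42 libraries held 552909 to 59639786 reads, of which 23900 to 3207823 lay in the named regions. The 5 arrays together held 14 to 1869 of these reads in a library, with a median of 207 reads. That was 0.0156% to 0.298% of the region reads, with a median of 0.0653%. Counting error alone gave the summed reads a coefficient of variation of 2.31% in the library with the most rDNA reads and 26.7% in that with the fewest. All intervals below are 95% intervals and cover counting error only. They treat reads as independent molecules, which reads without molecular identifiers are not. Because the arrays are near-identical, the array to which a read was given is uncertain. The table tallies 21.1% to 68.3% of all reads in a library as set aside for low mapping quality. How many of these were rDNA was not measured, and how reads that fit several places were treated is not given in the sources used here. The sum over the arrays does not depend on which array a read was given to.

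The arrays did not share the reads evenly. Of the 15048 rDNA reads of all libraries, rDNA_21_1 held 9225 (61.3%), rDNA_13_1 held 2840 (18.9%) and rDNA_15_1 held 1334 (8.86%). The other two held similar numbers, with 839 reads (5.58%) in rDNA_22_1 and 810 (5.38%) in rDNA_14_1. Averaging the percentages of the libraries of a replica, and then the 7 replicas, rDNA_21_1 took 60.5% ± 6.60 (SD, n = 7) of the rDNA reads and ranged from 50.3% to 70.2%. The share of rDNA_13_1 was 16.5% ± 3.72, that of rDNA_15_1 was 9.85% ± 2.86, that of rDNA_22_1 was 7.64% ± 4.63 and that of rDNA_14_1 was 5.44% ± 2.13 (SD, n = 7 each). These are shares of placed reads. They are not levels per length or per repeat, since region lengths and repeat numbers were not used here.

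The first step in this order was larger than the spread between replicas. rDNA_21_1 held more reads than rDNA_13_1 in 42 of 42 libraries and 7 of 7 replicas, with a mean log2 ratio of 1.95 (3.86-fold, SD 0.49). rDNA_13_1 held more than rDNA_15_1 in 33 of 42 libraries and 6 of 7 replicas, at 0.81 (1.75-fold, SD 0.74). Below that, neighbouring arrays did not differ beyond their spread. The log2 ratio of rDNA_15_1 to rDNA_22_1 was 0.56 (SD 0.80), higher in 4 of 7 replicas, and that of rDNA_22_1 to rDNA_14_1 was 0.23 (SD 0.70), also higher in 4 of 7.

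The division among arrays was also compared between pulldown and input, adding the 4 pulldown libraries of a replica and its 2 inputs. rDNA_21_1 took a smaller share of the rDNA reads in pulldown than in input in 6 of 7 replicas, by a mean of -4.05 percentage points (SD 4.30). In mitoxantrone replica 1, which had the most rDNA reads, its share was 58.6% in pulldown and 66.4% in input. rDNA_22_1 took the larger share in pulldown in 6 of 7 replicas, by 2.86 points (SD 3.95). That mean leaned on etoposide replica 1, where rDNA_22_1 took 21% of the rDNA reads in pulldown (Wilson interval 17.1% to 25.6%) and 9.82% in input (8.03% to 12.0%); without this replica the difference was 1.47 points. Etoposide replica 1 was also the only replica read at 38 bp, and the part of read length in this was not tested. The differences for rDNA_13_1 (1.09 points, SD 2.20), rDNA_15_1 (0.10, SD 2.90) and rDNA_14_1 (0.00, SD 1.94) were smaller than their SD, as were those of rDNA_21_1 and rDNA_22_1.

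**Figure D1:**
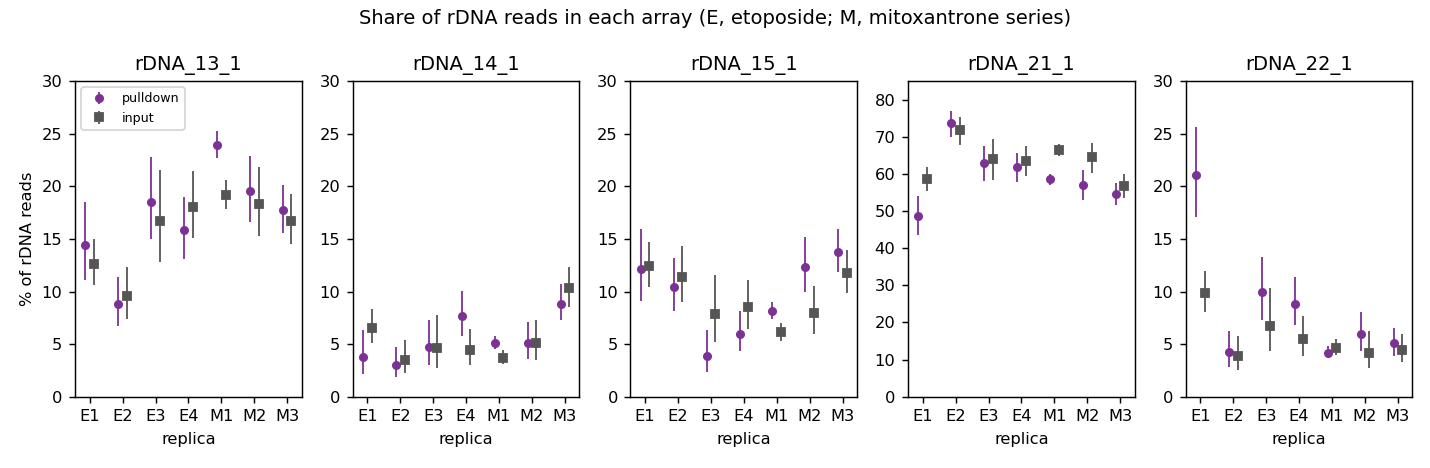
Share of the rDNA reads held by each of the 5 arrays, in percent, by replica (E1 to E4, etoposide series; M1 to M3, mitoxantrone series). Circles add the pulldown libraries of a replica and squares its inputs, with 95% Wilson intervals; the panel of rDNA_21_1 has a taller axis than the others. rDNA_21_1 holds the largest share in every replica, and the pulldown of E1 stands out in rDNA_22_1 at 21%.

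The rDNA share of a library followed the replica far more than the drug or the antibody. Grouping by replica accounted for 87.7% of the variance of the log2 rDNA share over the 42 libraries, grouping by library kind for 0.395% and grouping into drug and no drug for 0.0783%. These groupings had 7, 3 and 2 levels, and that by drug put both drugs and all library kinds together, so opposite changes could cancel. The 12 groups, which keep series, drug and library kind apart, accounted for 11.2%. The replica medians ran from 0.0215% in mitoxantrone replica 3, through 0.0258% in etoposide replica 2, 0.0322% in etoposide replica 1, 0.0702% in etoposide replica 4, 0.116% in etoposide replica 3 and 0.119% in mitoxantrone replica 2, to 0.253% in mitoxantrone replica 1. Libraries of the same group therefore differed by more than counting error. The SD of the log2 share was 1.87 (TOP2B with etoposide) to 30.3 times the counting SD. Within a replica, the SD over its 6 libraries was still 2.15 to 5.13 times the counting SD. For this reason ratios of shares are taken within replicas below. The edgeR fits that include drug-treated libraries had no replica block, so they did not use this pairing. A block was added to them as an alternative.

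Several technical features moved with the replica. Grouping by the 5 sequencing orders accounted for 85.3% of the variance, and grouping by read length for 45.7%. Reads were 38 bp long in etoposide replica 1, 100 bp in mitoxantrone replica 1 and 50 bp in the other 30 libraries. Etoposide replicas 3 and 4 and mitoxantrone replica 2 shared an order, and each remaining replica had its own, so replica and order cannot be told apart for those. The share of reads set aside for low mapping quality moved with the rDNA share. Its replica medians were 21.3% in mitoxantrone replica 3, 28.9% and 26.9% in etoposide replicas 2 and 1, 37.5% and 39.5% in etoposide replicas 4 and 3, 43.2% in mitoxantrone replica 2 and 59.0% in mitoxantrone replica 1. Its part in the rDNA share was not tested.

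**Figure D2:**
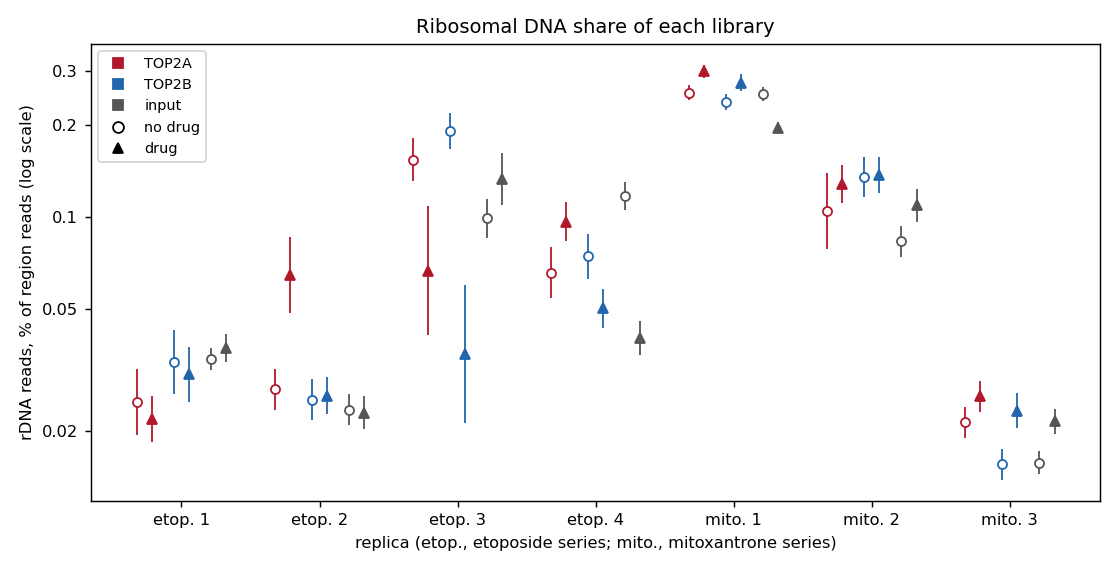
rDNA reads as a percent of region reads (log axis) in each of the 42 libraries, by replica, with 95% Wilson intervals. Colours give the library kind, open circles no drug and filled triangles drug; replica medians run from 0.0215% (mitoxantrone 3) to 0.253% (mitoxantrone 1), and several replicas overlap.

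**Figure D3:**
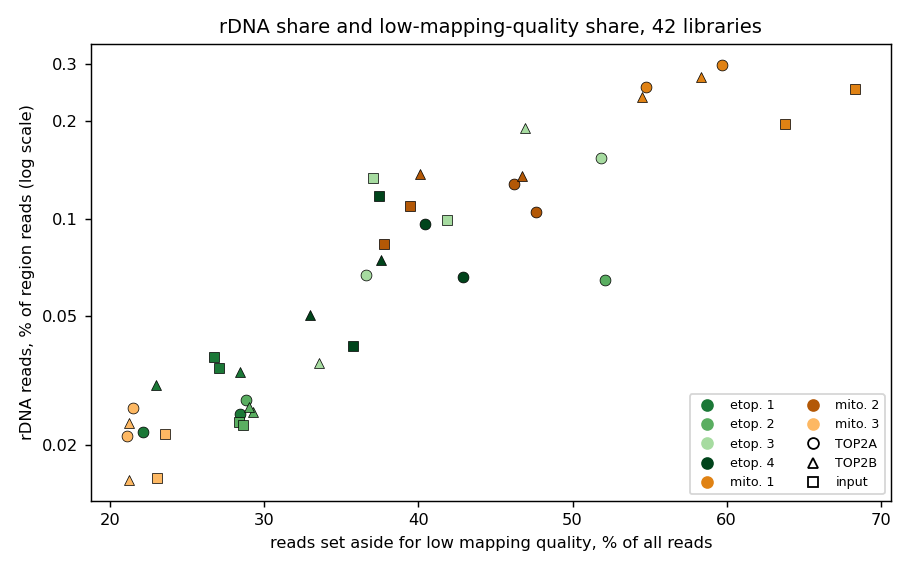
rDNA reads as a percent of region reads (log axis) against reads set aside for low mapping quality as a percent of all reads, with 1 point for each of the 42 libraries. Colours give the replica and symbols the library kind; etoposide replica 3 spreads from 0.0359% to 0.191%, and the etoposide replica 2 TOP2A library with drug, at 52.1% and 0.0647%, lies apart from the rest of its replica.

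The first question of the design was whether a drug moved DNA of the arrays into the TOP2 pulldowns. In the TOP2A pulldown etoposide gave no common direction. The rDNA share without drug was 0.0250%, 0.0275%, 0.154% and 0.0659% of region reads in etoposide replicas 1 to 4. With etoposide it was 0.0220%, 0.0647%, 0.0669% and 0.0966%, so the groups overlapped. The log2 ratio of the shares within a replica was -0.19 (exact interval -0.63 to 0.28), 1.25 (0.73 to 1.72), -1.16 (-2.04 to -0.45) and 0.55 (0.19 to 0.92). Replicas 2 and 4 were higher and replica 3 lower by more than counting error, and the mean was 0.11 (1.08-fold, SD 1.03, n = 4). The direction of this mean rested on single libraries and on rDNA_21_1. It was -0.27 without replica 2 and -0.73 when the sum left rDNA_21_1 out.

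Both extreme replicas had shallow TOP2A libraries with etoposide. That of replica 2 held 46 rDNA reads and set aside 52.1% of its reads for low mapping quality, against 28.4% to 29.3% in the other 5 libraries of that replica. That of replica 3 held 16 rDNA reads, and all 16 lay in rDNA_21_1. With no read in the 4 other arrays, each of these could hold up to 18.8% of the rDNA reads of that library, by the limit of 3 reads. rDNA_14_1 was also without a read in the replica 2 library. The part of these library features in the ratios was not tested.

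By array, edgeR's fit across all regions put rDNA_15_1 at 0.55 (log2, SE 0.69, 1.46-fold) with etoposide in the TOP2A pulldown and rDNA_14_1 at -1.0 (SE 1.11). rDNA_13_1 was at -0.45 (SE 1.01) and rDNA_22_1 at -0.08 (SE 1.01). rDNA_21_1 lay at -0.01 (SE 0.74), and at 0.03 with another scaling of the libraries (RLE). All 5 arrays had an edgeR adjusted p of 0.999. Of the 1068 regions in this comparison, edgeR called 0 (0%) and gave 7 an unadjusted p below 0.05; for DESeq2 these counts were 0 and 14.

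In the TOP2B pulldown the arrays were lower with etoposide on average, mainly in replica 3. The rDNA share without drug was 0.0337%, 0.0254%, 0.191% and 0.0745% in replicas 1 to 4. With etoposide it was 0.0307%, 0.0262%, 0.0359% and 0.0504%, again overlapping the range without drug. The log2 ratios were -0.14 (exact interval -0.60 to 0.34), 0.04 (-0.26 to 0.35), -2.36 (-3.31 to -1.63) and -0.56 (-0.89 to -0.23). Replicas 3 and 4 were lower by more than counting error and replicas 1 and 2 were not. The mean was -0.76 (0.592-fold, SD 1.10, n = 4), and -0.22 without replica 3, whose etoposide library had 14 rDNA reads. In that replica the share set aside for low mapping quality was 33.6% with etoposide and 46.9% without.

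All 5 arrays lay below 0 in edgeR's fit of this comparison, from -0.85 to -2.12 with a median of -1.16, where the median over the 1068 regions was 0.07 and 54.7% of regions were above 0. rDNA_14_1 was lowest at -2.12 (SE 1.11, 0.230-fold), followed by rDNA_13_1 at -1.72 (SE 1.02), rDNA_21_1 at -1.16 (SE 0.75), rDNA_15_1 at -0.99 (SE 0.68) and rDNA_22_1 at -0.85 (SE 1.01). None passed the test, with an edgeR adjusted p of 0.996 for each. Without replica 3, rDNA_21_1 and rDNA_22_1 were both at -0.06, and with the replica as a block they were at -0.52 and -0.36. Of the 1068 regions, edgeR called 0 (0%) and gave 7 an unadjusted p below 0.05; for DESeq2 these counts were 0 and 8. Taken within replicas, rDNA_13_1 and rDNA_15_1 were lower in 4 of 4, as rDNA_14_1 was in the TOP2A pulldown (mean -1.08, SD 0.90, no interval off 0). For rDNA_15_1 the mean was -0.89 (SD 0.81). For rDNA_13_1 it was -1.11 (SD 0.73), with log2 ratios of -0.85, -0.64, -2.19 and -0.77. The reads of rDNA_13_1 were few, at 14, 13, 3 and 25 with etoposide and 17, 17, 44 and 21 without. For both arrays the interval lay off 0 in 1 of the 4 replicas.

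The input libraries carry no pulldown and give the background of the drug comparison. With etoposide the rDNA share of the input was 0.0374%, 0.0230%, 0.133% and 0.0403% in replicas 1 to 4, against 0.0345%, 0.0235%, 0.0991% and 0.117% without drug. The log2 ratios were 0.12 (exact interval -0.08 to 0.31), -0.03 (-0.28 to 0.22), 0.43 (0.06 to 0.78) and -1.54 (-1.79 to -1.29). The mean was -0.26 (0.838-fold, SD 0.88, n = 4), and 0.17 without replica 4. The input of a single replica thus moved by 1.54 on the log2 scale, with 232 and 333 rDNA reads behind the values. edgeR put all 5 arrays between -1.50 and -0.26 in input, with adjusted p of 0.996 for each and 0 of 1068 regions called (0%; 0 had an unadjusted p below 0.05, and for DESeq2 these counts were 0 and 0). rDNA_14_1 was again the lowest, at -1.50 (SE 1.04) and -0.68 without replica 4. Leaving out a replica put rDNA_13_1, rDNA_15_1 and rDNA_21_1 above 0, at up to 0.50, 0.13 and 0.25.

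Relative to input, the etoposide effect on the rDNA share was 0.37 (SD 1.64) in the TOP2A pulldown and -0.50 (SD 1.61) in the TOP2B pulldown, each in the direction of its mean in 2 of 4 replicas. By array in TOP2B, rDNA_15_1 was lower in 4 of 4 replicas (mean -0.73, SD 0.10), while rDNA_14_1 and rDNA_22_1 had means above 0. Counting error alone gave the log2 share of all arrays together an SD of 0.22 in the etoposide TOP2B libraries. That of replica 3 held 14 rDNA reads. The counts thus cannot resolve how alike the rDNA_15_1 values were. edgeR's fit put all 5 arrays below 0 in TOP2B, from -1.46 to -0.14, with an adjusted p of 0.999 for each. In TOP2A it put 4 of 5 above 0, from -0.19 to 0.91. edgeR called 0 of 1068 regions (0%) in both. The difference of the TOP2A and TOP2B effects of etoposide does not use the input. It was -0.05, 1.20, 1.20 and 1.11 in replicas 1 to 4, with a mean of 0.87 (1.82-fold, SD 0.62). The values of replicas 2, 3 and 4 lay close together and replica 1 lay apart. The etoposide libraries of replicas 2 and 3 included some with 46, 16 and 14 rDNA reads. Without libraries under 50 rDNA reads 2 replicas were left, 1 higher and 1 lower, with a mean of 0.53. Without rDNA_21_1 the mean was 0.23. By array, all 5 differences were above 0 in edgeR's fit, from 0.78 (rDNA_22_1, SE 1.42) to 1.54 (rDNA_15_1, SE 0.97), where the median over 1068 regions was -0.08. Without replica 4, rDNA_14_1 was at -1.15. Taken within replicas, rDNA_14_1 had a mean of -0.06 (SD 1.97). The other 4 means ran from 0.17 (rDNA_22_1, SD 1.34) to 1.17 (rDNA_15_1, SD 1.27). By replica, rDNA_13_1, rDNA_14_1 and rDNA_22_1 were higher in 2 of 4, and rDNA_15_1 and rDNA_21_1 in 3 of 4. None passed, with an edgeR adjusted p of 1 for each and 0 of 1068 regions called (0%; 6 had an unadjusted p below 0.05, and for DESeq2 these counts were 0 and 10).

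With mitoxantrone the rDNA share of the TOP2A pulldown was higher in each of the 3 replicas. Without drug it was 0.255%, 0.105% and 0.0214% of region reads in replicas 1 to 3, and with mitoxantrone 0.298%, 0.128% and 0.0261%. The groups overlapped, since the replicas differed by more than the drug moved them. The log2 ratios were 0.23 (exact interval 0.12 to 0.34), 0.28 (-0.18 to 0.79) and 0.29 (0.04 to 0.53), with a mean of 0.27 (1.20-fold, SD 0.03, n = 3). The ratio of replica 2, with 46 rDNA reads without drug, was within counting error. The intervals of the other two came close to 0 at their lower ends. The SD of 0.03 was far smaller than the counting intervals, so these counts cannot resolve how alike the 3 ratios were. Without rDNA_21_1, and with reads pooled over replicas, the value moved by more than this SD, as given in the last section.

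In the TOP2B pulldown the ratios with mitoxantrone were also above 0 in 3 of 3 replicas, with more spread. The rDNA share was 0.237%, 0.136% and 0.0156% without drug and 0.274%, 0.137% and 0.0234% with it. The log2 ratios were 0.21 (exact interval 0.08 to 0.34), 0.02 (-0.28 to 0.32) and 0.58 (0.33 to 0.84), with a mean of 0.27 (1.21-fold, SD 0.29, n = 3). In input the share went from 0.251%, 0.0834% and 0.0158% to 0.195%, 0.109% and 0.0216%. The input ratios were -0.36 (-0.47 to -0.26), 0.39 (0.14 to 0.64) and 0.45 (0.26 to 0.63), all beyond counting error and of different sign, with a mean of 0.16 (SD 0.45, n = 3). Replicas 2 and 3 thus had input ratios as large as those of their pulldowns or larger, except for TOP2B in replica 3. Relative to input, the mitoxantrone effect was 0.11 (SD 0.42) in TOP2A and 0.11 (SD 0.48) in TOP2B, within the spread of the replicas. The difference between these effects, without input, was 0.00 (SD 0.28).

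Among the arrays, rDNA_21_1 was higher with mitoxantrone in 3 of 3 replicas in both pulldowns. The mean of the ratios within replicas was 0.39 (SD 0.19) in TOP2A and 0.37 (SD 0.16) in TOP2B, and 0.16 (SD 0.56) in input. rDNA_13_1 was higher in 3 of 3 in TOP2B, at 0.33 (SD 0.19), and in 2 of 3 in TOP2A, at 0.28 (SD 0.56). For rDNA_14_1 the order was the other way round, with 0.41 (SD 0.24) and 3 of 3 replicas in input but -0.28 (SD 0.50) in TOP2A and -0.13 (SD 1.03) in TOP2B. rDNA_15_1 and rDNA_22_1 had no common direction in either pulldown. edgeR's fit, which took no account of the replicas, put the arrays from -0.20 to 0.41 for TOP2A, from -0.73 to 0.32 for TOP2B and from -0.21 to 0.36 for input. SEs were 0.94 to 1.27, the edgeR adjusted p was at least 0.999 for every array, and edgeR called 0 of 1416 regions (0%) in each of the 3 comparisons. Below an unadjusted p of 0.05 edgeR had 5 TOP2A, 3 TOP2B and 1 input regions, and DESeq2, which called 0, had 7, 3 and 1.

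**Figure D4:**
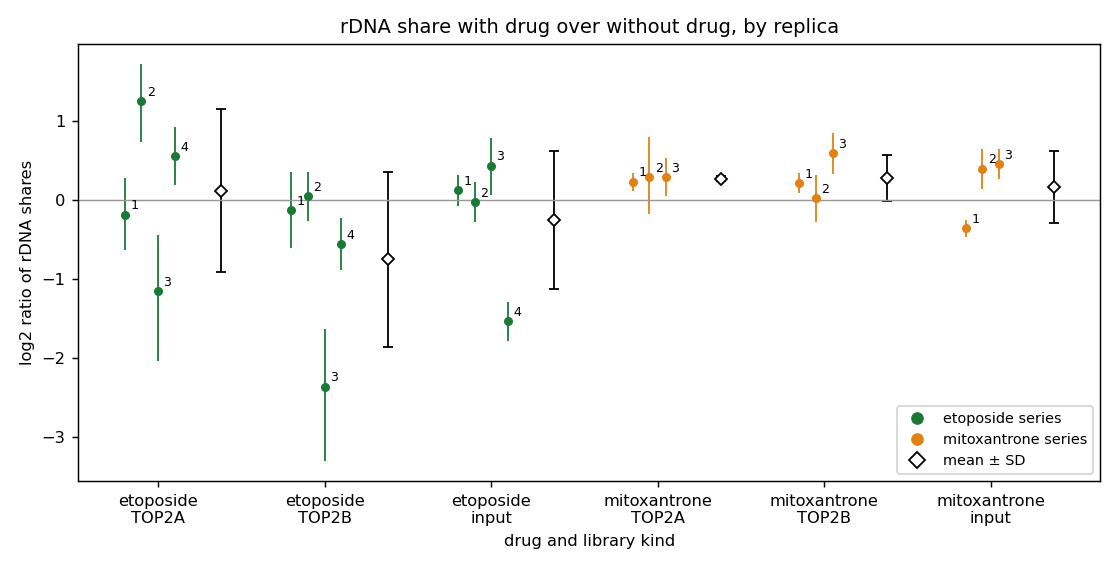
log2 ratio of the rDNA share with drug over that without drug in each replica (numbered points with 95% exact counting intervals), and the mean ± SD over replicas (diamonds; 4 replicas for etoposide, 3 for mitoxantrone), by drug and library kind. The etoposide points spread from -2.36 to 1.25, and the mitoxantrone points from -0.36 to 0.58.

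The drug ratio of the rDNA share and the drug difference of the share set aside for low mapping quality had the same sign in 13 of 21 pairs of libraries, 7 of 12 with etoposide and 6 of 9 with mitoxantrone. For 4 other classes the SD over replicas was taken in the same way, over the 12 comparisons of drug with no drug and of pulldown with input. It was 0.03 to 1.30 for the arrays and 0.03 to 0.15 for the transition regions (ct) of the same 5 chromosomes, 333 regions added together. It was 0.15 to 0.61 for beta satellite, 0.33 to 1.24 for gamma satellite and 0.67 to 1.75 for monomeric alpha satellite. The classes differ in read number, and these differences were not tested.

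Setting the drugs side by side, the mean effect on the rDNA share was 0.11 for etoposide and 0.27 for mitoxantrone with the TOP2A antibody. These means were -0.76 and 0.27 with the TOP2B antibody, and -0.26 and 0.16 for input. The drugs were given at different doses and in different replicas, so these are values next to each other. The interaction by array, etoposide effect minus mitoxantrone effect, was fitted over all 42 libraries. In TOP2B it was below 0 for 5 of 5 arrays, from -1.84 (rDNA_13_1, SE 1.58) to -0.06 (rDNA_22_1, SE 1.57), with an edgeR adjusted p of 0.997 for each; with the replica as a block rDNA_22_1 was at 0.10. In TOP2A it ran from -0.94 (rDNA_13_1) to 0.64 (rDNA_15_1) and in input from -1.82 (rDNA_14_1) to -0.16 (rDNA_13_1), with an edgeR adjusted p of 1 for each. edgeR called 0 of 1372 regions (0%) in all 3, with 6, 10 and 0 at an unadjusted p under 0.05 in TOP2A, TOP2B and input. DESeq2 called 0 with 9, 9 and 0.

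The second question was whether the pulldowns held more of the arrays than input did. Without drug they did not, as far as the sum shows. The log2 ratio of the rDNA share in TOP2A to that in input was -0.46, 0.23, 0.63 and -0.83 in etoposide replicas 1 to 4 and 0.02, 0.34 and 0.44 in mitoxantrone replicas 1 to 3. Its mean was 0.05 (1.04-fold, SD 0.52, n = 7), above 0 in 5 of 7 replicas, with the counting interval above 0 in 2 and below 0 in 2. For TOP2B the ratios were -0.03, 0.11, 0.95 and -0.65 in the etoposide series and -0.09, 0.70 and -0.02 in the mitoxantrone series. The mean was 0.14 (1.10-fold, SD 0.53, n = 7), above 0 in 3 of 7. Etoposide replicas 3 and 4, which shared a sequencing order, lay at opposite ends in both pulldowns.

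Of the arrays, rDNA_22_1 had the most regular difference between TOP2A and input in the untreated libraries. It was higher in TOP2A than in input in 7 of 7 replicas, with log2 ratios of 0.71, 0.21, 1.11 and 0.06 in the etoposide series and 0.56, 1.34 and 0.95 in the mitoxantrone series. The mean was 0.70 (SD 0.47). These rest on few reads, 14, 6, 16 and 10 in the etoposide-series TOP2A libraries and 48, 4 and 18 in those of the mitoxantrone series, and no replica's own interval lay off 0. edgeR, with the replica as a block, fitted 0.59 (SE 0.27, 1.51-fold) with an unadjusted p of 0.0402 and an adjusted p of 0.313, so the array did not pass. The other arrays lay at 0.14 (rDNA_14_1, SE 0.31), 0.13 (rDNA_15_1, SE 0.29), 0.07 (rDNA_13_1, SE 0.23) and -0.19 (rDNA_21_1, SE 0.21). edgeR called 0 of 1028 regions (0%), and 150 had an unadjusted p under 0.05 in either direction. An unadjusted p under 0.05 was thus common among regions in this comparison, but the 150 were not split by direction. DESeq2 called 25 regions with 158 at an unadjusted p under 0.05, and no array was among the 25. All 25 were lower in TOP2A, whereas rDNA_22_1 was higher. edgeR called 39 without the filter on low counts, 46 without mitoxantrone replica 1 and 1 without etoposide replica 3, again with no array among them.

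In TOP2B against input without drug, edgeR put 4 of 5 arrays above 0, from 0.27 (rDNA_15_1, SE 0.28) to 0.44 (rDNA_22_1, SE 0.26), and rDNA_21_1 at -0.19 (SE 0.21). Within replicas rDNA_22_1 was higher in 4 of 7 (mean 0.38, SD 1.02) and rDNA_15_1 in 6 of 7 (mean 0.39, SD 0.72). The lowest edgeR adjusted p of an array was 0.765. Of the 1028 regions, edgeR called 0 (0%) and gave 71 an unadjusted p below 0.05; for DESeq2 these counts were 0 and 90. In both pulldowns, then, the array with the most reads was the one below 0, in each case by less than its SE.

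Under etoposide the pulldown over input ratios lay on both sides of 0. For TOP2A they were -0.76, 1.5, -0.95 and 1.26 in replicas 1 to 4, each beyond counting error, with a mean of 0.26 (SD 1.30, n = 4). For TOP2B they were -0.28, 0.18, -1.85 and 0.32, with a mean of -0.40 (SD 1.00, n = 4). Leaving out replica 2 turned the TOP2A mean to -0.15, and leaving out replica 3 turned the TOP2B mean to 0.08. rDNA_22_1 had the highest fitted value among the arrays in both, at 1.18 (SE 1.02) in TOP2A and 0.50 (SE 1.03) in TOP2B. The edgeR adjusted p was 0.997 for every array in TOP2A and 0.999 in TOP2B, and edgeR called 0 of 1068 regions (0%) in both, with 27 and 11 below an unadjusted p of 0.05 (for DESeq2, 0 called and 36 and 22 below it).

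Under mitoxantrone the rDNA share was higher in pulldown than in input in 3 of 3 replicas for either antibody. For TOP2A the log2 ratios were 0.61 (exact interval 0.51 to 0.71), 0.23 (-0.05 to 0.51) and 0.27 (0.05 to 0.49), with a mean of 0.37 (1.29-fold, SD 0.21, n = 3). For TOP2B they were 0.49 (0.37 to 0.60), 0.33 (0.05 to 0.60) and 0.12 (-0.12 to 0.35), with a mean of 0.31 (1.24-fold, SD 0.19, n = 3). Without drug, the TOP2A ratios of these same replicas were also all above 0, and their TOP2B ratios lay on both sides of 0. Relative to those ratios the mean change with drug was 0.11 for either antibody. Both antibodies were set against the same inputs, and the input share of replica 1 was itself lower with drug (log2 ratio -0.36). Under mitoxantrone rDNA_13_1 was higher in 3 of 3 replicas in both pulldowns, by 0.59 (SD 0.30) in TOP2A and 0.62 (SD 0.20) in TOP2B. rDNA_15_1 was as well, by 0.61 (SD 0.20) and 0.57 (SD 0.10). Relative to the untreated ratios of the same replicas, the mean change of rDNA_15_1 with drug lay below 0. It was -0.38 (SD 0.74, higher in 1 of 3 replicas) for TOP2A and -0.23 (SD 0.98, higher in 2 of 3) for TOP2B. Both were within the spread of the replicas. For rDNA_13_1 this change was 0.29 (SD 0.54, higher in 2 of 3) and 0.34 (SD 0.24, higher in 3 of 3). In edgeR's fit, which had no replica term, the SEs of these arrays were 1.02 to 1.26 and every array's adjusted p was 1. edgeR called 0 of 1416 regions (0%) in both comparisons, with 3 and 0 below an unadjusted p of 0.05 (for DESeq2, 0 called and 9 and 3 below it).

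**Figure D5:**
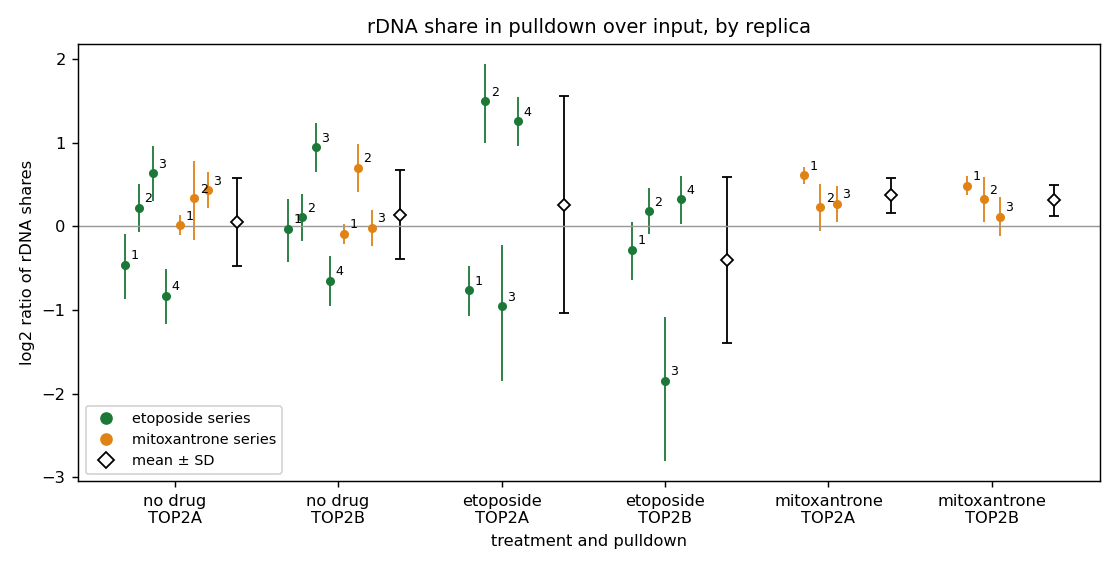
log2 ratio of the rDNA share in pulldown over that in input in each replica (numbered points with 95% exact counting intervals; green, etoposide series; orange, mitoxantrone series), and the mean ± SD (diamonds; 7 replicas without drug, 4 with etoposide, 3 with mitoxantrone). The ratios without drug scatter around 0, those under etoposide run from -1.85 to 1.5, and those under mitoxantrone lie from 0.12 to 0.61. The 3 mitoxantrone replicas are among the 7 without drug, where their TOP2A ratios are also above 0.

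The third question was whether TOP2A and TOP2B differed at the arrays. The log2 ratio of the rDNA share in TOP2A to that in TOP2B was -0.09 (SD 0.32, n = 7) without drug, higher in 3 of 7 replicas. It was 0.06 (SD 0.14, n = 3) under mitoxantrone, higher in 2 of 3. Under etoposide it was -0.48, 1.32, 0.89 and 0.94 in replicas 1 to 4, with a mean of 0.67 (1.59-fold, SD 0.79, n = 4). Without rDNA_21_1 the mean was -0.12. All 5 arrays lay above 0 under etoposide in edgeR's fit, from 0.66 (rDNA_14_1, SE 1.16) to 1.00 (rDNA_21_1, SE 0.75), with an edgeR adjusted p of 0.994 for each. Without replica 4, rDNA_13_1 and rDNA_14_1 were at -0.05 and -0.89. Of the 1068 regions, edgeR called 0 (0%) and gave 21 an unadjusted p below 0.05; for DESeq2 these counts were 0 and 27. Under mitoxantrone rDNA_22_1 was higher in TOP2A in 3 of 3 replicas, with log2 ratios of 0.74, 0.50 and 0.80, while the other arrays had means of -0.28 to 0.09. Some of these ratios rest on few reads. In replica 2 with mitoxantrone, rDNA_22_1 held at most 8.70% of 185 rDNA reads in TOP2A and 7.65% of 207 in TOP2B. edgeR's value for rDNA_22_1 was 0.64 (SE 1.20, adjusted p 0.999), with 0 of 1416 regions called (0%; 0 had an unadjusted p below 0.05, and for DESeq2 these counts were 0 and 0). Without drug the arrays ran from -0.24 (rDNA_13_1, SE 0.24) to 0.15 (rDNA_22_1, SE 0.27), with an edgeR adjusted p of 0.995 for each. Of the 1028 regions there, edgeR called 0 (0%) and gave 2 an unadjusted p below 0.05; for DESeq2 these counts were 0 and 3.

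Over all 24 comparisons fitted, none of the 120 array values passed edgeR's test, and no comparison had a called region. The fits differed in how much spread they had to allow for. The median biological coefficient of variation was 0.527 in the etoposide fit, 0.638 in the mitoxantrone fit and 0.180 in the untreated libraries with the replica as a block. In the first pair of fits differences between replicas counted as spread.

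The arrays also moved together across libraries. Pearson's r between the log2 shares of 2 arrays was 0.65 to 0.89 over the 42 libraries in the 10 pairs of arrays, and 0.31 to 0.75 once the mean of each replica had been removed. Among 545 other regions with a mean of at least 50 reads, those most like the rDNA sum over the 42 libraries were censat_15_10(ACRO_composite) (r = 0.87), censat_17_19(SST1_Composite) (0.86), censat_15_2(ACRO_composite) (0.84), ct_16_14 (0.84) and ct_22_100 (0.84). The median r over the 545 regions was -0.05. The ACRO composites are repeats named for the acrocentric chromosomes. After removal of replica means the leading regions were ct_20_13 (0.79), ct_13_47 (0.77), ct_20_25 (0.76), ct_22_99 (0.76) and ct_15_35 (0.76), with a median of -0.12 over all 545. These correlations describe libraries that share replicas, sequencing orders and totals, and reads that share the same mapping-quality filter.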

How the data were processed

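The values used were the deposited read counts of 2523 named regions and 5 tallies in 42 libraries of 1 human cell line. Per the submitters' processing notes, reads were handled with Trimmomatic 0.36, BWA 0.7.17 and HTSeq 2.7.13 on T2T-CHM13; neither the mapping-quality minimum nor the treatment of reads that fit several places is stated there, and the counts had not been normalised. The 5 arrays, the comparisons and the class lists were chosen with earlier results of these data known.

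The summed rDNA reads plus 0.5 were divided by region reads, ratios were taken within replicas, and mean ± SD is given with no test, since the sum is over chosen regions. Ratios have exact (Clopper-Pearson) and shares Wilson intervals at 95%. A count of 0 was bounded at 3 counts. Arrays were tested within all regions by edgeR 4.0.16 (R 4.3.3; TMM, quasi-likelihood, two-sided, filterByExpr minimum count 10, Benjamini-Hochberg, threshold 0.05), and all 5 arrays passed the filter in each fit. Each series was fitted alone without a replica block, and the untreated libraries with one. The script was tested on simulated data with less spread than the fits of drug effects and no replica differences. That test does not show the power of these fits. Alternatives were a replica block (none for the untreated fit), RLE scaling, DESeq2 1.42.0, no filter, other denominators or sums and leaving out replicas. Regions named beside the arrays were the 5 most correlated with the sum over libraries, before and after centring by replica, at a mean of at least 50 reads. No 2 libraries of a group held identical counts (0 of 54 pairs; chi-square per degree of freedom at least 2.27).

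The replica number, shared in the labels by libraries of 1 replica and order, pairs drug and no-drug libraries: in 18 of 21 pairs deviations from the group means correlated above 0.1 over 547 regions (-0.58 to 0.95). The remaining pairs correlated below 0 and were all in the etoposide series. They were TOP2A of replica 3 (-0.22), TOP2B of replica 4 (-0.36) and input of replica 4 (-0.58). The log2 drug ratios of the rDNA share in these pairs were -1.16, -0.56 and -1.54, so the pairing was not borne out for them.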

Additional observations from a re-analysis of the deposited data

Results flagged for a closer look

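With etoposide, the rDNA share of the input library of replica 3 was 0.133% of region reads, far above the other 3 libraries of its group (0.0230% to 0.0403%). Replica 3 was also high without drug, at 0.0991% in input, 0.154% in TOP2A and 0.191% in TOP2B. The input of replica 4 was at 0.117% without drug. The log2 etoposide effect in TOP2A minus that in TOP2B was -0.05 in replica 1, far below the 1.11 to 1.20 of the other 3 replicas. Both stood out by the distance to the nearest other sample. Of 18 groups of values examined in this way 2 stood out, and chance gives about 1 in 20. The groups share libraries, so their number cannot be set against that rate as if they were independent.

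The 5 arrays were examined in each library kind, and for 3 of these array values the replicas of the drugs lay on opposite sides of 0. How many of all regions did so was not counted, so this cannot be read as a trait of the arrays. Both input values among them rest on the same libraries. In TOP2B, rDNA_13_1 was lower with etoposide in 4 of 4 replicas and higher with mitoxantrone in 3 of 3 (means -1.11 and 0.33), a difference of -1.44. In input, rDNA_14_1 did the same (-1.32 and 0.41), a difference of -1.73, and so did rDNA_22_1 (-0.44 and 0.30), a difference of -0.73. Few of these ratios lay beyond counting error. Those that did were 1 of 4 with etoposide and 0 of 3 with mitoxantrone for rDNA_13_1, and 1 of 4 and 1 of 3 for each of rDNA_14_1 and rDNA_22_1. The differences come from values within replicas. edgeR's interaction over all libraries, which had no replica term, was -1.84 (SE 1.58), -1.82 (SE 1.38) and -1.05 (SE 1.52) in the same order, with adjusted p of 0.997, 1 and 1, so none passed.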

How the results depend on the processing

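None of the 1005 array values recomputed under other settings, over all 24 comparisons, was called; 907 kept their direction and 98 turned. The replica block changed no call. Where a block was added, the number of regions at an unadjusted edgeR p under 0.05 fell in no comparison. It went from 7 to 41 for etoposide in TOP2B and from 27 to 143 for TOP2A against input under etoposide. The lowest unadjusted edgeR p of an array was then 0.0279 and 0.0445 in these comparisons, and the lowest adjusted p 0.761 and 0.367. With the block, in TOP2A with etoposide, rDNA_13_1, rDNA_21_1 and rDNA_22_1 moved to 0.04, 0.26 and 0.54. For the etoposide effect minus that in input, rDNA_13_1 in TOP2A moved to 0.29 and rDNA_22_1 in TOP2B to 0.22. In TOP2A against input under etoposide, rDNA_13_1, rDNA_14_1 and rDNA_15_1 moved to 0.11, -0.00 and 0.12. With mitoxantrone, rDNA_15_1 in TOP2B moved to 0.11, and rDNA_13_1 and rDNA_21_1 in input to 0.00 and 0.16. For its effect in TOP2A less that in TOP2B, rDNA_13_1, rDNA_14_1 and rDNA_15_1 moved to -0.12, -0.02 and -0.15, and under mitoxantrone rDNA_14_1 in TOP2A against input moved to -0.04 and, in TOP2A against TOP2B, rDNA_15_1 and rDNA_21_1 moved to -0.00 and 0.07. For etoposide less mitoxantrone, rDNA_22_1 moved to 0.38 in TOP2A and 0.10 in TOP2B. Without the block, in TOP2A against TOP2B without drug, rDNA_21_1 and rDNA_22_1 moved to -0.02 and -0.10. rDNA_21_1 in TOP2A with etoposide was 0.04 by DESeq2 and 0.03 with RLE scaling. In TOP2A against TOP2B under mitoxantrone, rDNA_13_1 was 0.03 by DESeq2, 0.04 with RLE and 0.02 without the filter, and rDNA_21_1 was 0.02, 0.02 and 0.01.

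Leaving out a replica turned 54 array values, given here by their range. With etoposide against no drug, in TOP2A rDNA_13_1 ranged from -1.24 to 0.61, rDNA_21_1 from -0.52 to 0.73 and rDNA_22_1 from -0.62 to 0.91, and in input rDNA_13_1 from -0.91 to 0.50, rDNA_15_1 from -0.76 to 0.13 and rDNA_21_1 from -0.96 to 0.25. For the etoposide effect in TOP2A minus input, rDNA_13_1 ranged from -1.74 to 1.52, rDNA_14_1 from -1.97 to 1.57, rDNA_21_1 from -0.77 to 1.68 and rDNA_22_1 from -0.33 to 1.70. In TOP2B minus input, rDNA_13_1 ranged from -2.48 to 0.08, rDNA_21_1 from -1.75 to 0.90 and rDNA_22_1 from -0.66 to 0.74, and in TOP2A minus TOP2B, rDNA_14_1 from -1.15 to 1.77. Under etoposide, in TOP2A against input rDNA_13_1 ranged from -1.27 to 0.83, rDNA_14_1 from -1.78 to 1.36, rDNA_15_1 from -0.65 to 0.49 and rDNA_21_1 from -0.42 to 0.78. In TOP2B against input rDNA_14_1 ranged from -0.89 to 0.27 and rDNA_21_1 from -1.28 to 0.06, and in TOP2A against TOP2B rDNA_13_1 from -0.05 to 1.26 and rDNA_14_1 from -0.89 to 1.09. With mitoxantrone against no drug, rDNA_15_1 ranged from -0.39 to 0.30 in TOP2A, from -0.36 to 0.02 in TOP2B and from -0.48 to 0.93 in input. rDNA_22_1 ranged from -0.01 to 0.19 in TOP2A and from -0.01 to 0.51 in input, where rDNA_13_1 ranged from -0.29 to 0.13 and rDNA_21_1 from -0.50 to 0.37. For the mitoxantrone effect, in TOP2A minus input rDNA_15_1 ranged from -0.63 to 0.09 and rDNA_22_1 from -0.42 to 0.20, in TOP2B minus input rDNA_15_1 from -0.91 to 0.14 and rDNA_21_1 from -0.02 to 0.76, and in TOP2A minus TOP2B rDNA_15_1 from -0.05 to 0.28 and rDNA_21_1 from -0.16 to 0.30. Under mitoxantrone, in TOP2A against input rDNA_14_1 ranged from -0.55 to 0.43 and rDNA_21_1 from -0.01 to 0.41, and in TOP2B against input rDNA_14_1 from -0.01 to 0.39 and rDNA_22_1 from -0.67 to 0.31. In TOP2A against TOP2B there, rDNA_13_1 ranged from -0.16 to 0.13, rDNA_14_1 from -0.54 to 0.04, rDNA_15_1 from -0.10 to 0.19 and rDNA_21_1 from -0.19 to 0.18. Without drug, in TOP2A against input rDNA_13_1 ranged from -0.06 to 0.22, rDNA_14_1 from -0.01 to 0.28 and rDNA_15_1 from -0.05 to 0.31, and in TOP2A against TOP2B rDNA_21_1 from -0.06 to 0.08. For etoposide less mitoxantrone, in TOP2A rDNA_13_1 ranged from -1.57 to 0.11, rDNA_21_1 from -0.66 to 0.45 and rDNA_22_1 from -0.72 to 0.74, in TOP2B rDNA_22_1 from -0.63 to 0.68, and in input rDNA_13_1 from -0.75 to 0.59, rDNA_15_1 from -1.31 to 0.04 and rDNA_21_1 from -0.78 to 0.43.

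TOP2A against input without drug alone had called regions in an alternative, 25 by DESeq2, 39 without the filter on low counts and 0 to 46 with a replica left out, and no array among them. For the sum, 254 of 259 alternative values lay within 1 SD of the reported value. The other 5 were the etoposide effect in TOP2A less that in TOP2B without rDNA_21_1 (0.23), mitoxantrone in TOP2A without rDNA_21_1 (0.11) and with reads pooled over replicas (0.47), and, with pooled reads, mitoxantrone in TOP2B (0.59) and TOP2A against TOP2B under mitoxantrone (0.27). The cause was not tested. The sign differed in 26 values, of 13 of the 24 results. Leaving out libraries under 50 rDNA reads was chosen after seeing the data; it turned the TOP2B effect of etoposide minus input from -0.50 to 0.26 and TOP2B against input under etoposide from -0.40 to 0.08. Counting error limits single arrays more than their sum, which holds more reads.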
